A study of Mus musculus with 6 samples.

Results

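The transcripts of 10 mouse genes that are induced by ERK, the kinase at the end of the FGF signalling cascade, were followed across 3 groups of embryonic stem cells: Spry1, Spry2, Spry4, Spred1, Spred2, Dusp4, Dusp6, Etv1, Etv4 and Etv5. All probe sets that the array annotation assigns to these genes were taken, which gave 30 of the 45037 tested. Of these, 27 carry 1 gene symbol and belong to 9 genes. The other 3 are assigned both to Etv1 and to the pseudogene Gm5454, so their values cannot be given to Etv1 alone and are described apart as Etv1/Gm5454. RNA came from E14Tg2a cells, a mouse embryonic stem cell line. Every group was kept in N2B27, a medium without serum, to which LIF (1000 U/ml) and BMP4 (20 ng/ml) had been added. One group had activin at 10 ng/ml for 2 h, one had SB431542 at 5 µM for 24 h, and the control cells were left untreated, with no vehicle stated. Activin signals through the receptors and Smad2/3 proteins that Nodal also uses, and SB431542 inhibits the kinase activity of the type I receptors. There were 2 single-colour arrays per group, so each spread rests on 2 values, and the treatments differ in duration as well as in agent.

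FGF binding to its receptor activates Ras, Raf, MEK and then ERK, which phosphorylates transcription factors and so switches on genes that restrain the same cascade. Sprouty and Spred proteins inhibit Ras or Raf activation, Dusp4 and Dusp6 are phosphatases that remove the activating phosphates from MAP kinases, and Etv1, Etv4 and Etv5 form the PEA3 group of Ets transcription factors, which carry the response to FGF target genes. In mouse embryonic stem cells, FGF4 made by the cells drives this cascade and readies them for differentiation, and several of these transcripts are known to drop when MEK is inhibited. No FGF, MEK inhibitor or measurement of phosphorylated ERK is part of the study, so the 10 transcripts are an indirect readout.

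The 300 bases around the start sites of Dusp6 and Etv5 are shown because these 2 genes held the 3 probe sets of 1 symbol that were called lower after SB431542 by 1 of the 2 settings below. RefSeq (GRCm38.p6) lists 1 start site for Dusp6, chr10:99262981-99263280 on the plus strand, and 2 for Etv5, chr16:22439521-22439820 and chr16:22438319-22438618 on the minus strand. Each window runs from 250 bases before to 50 after the start, read along the gene. Capitals mark GGAA, the core of the site bound by Ets factors, and its reverse complement.
Dusp6: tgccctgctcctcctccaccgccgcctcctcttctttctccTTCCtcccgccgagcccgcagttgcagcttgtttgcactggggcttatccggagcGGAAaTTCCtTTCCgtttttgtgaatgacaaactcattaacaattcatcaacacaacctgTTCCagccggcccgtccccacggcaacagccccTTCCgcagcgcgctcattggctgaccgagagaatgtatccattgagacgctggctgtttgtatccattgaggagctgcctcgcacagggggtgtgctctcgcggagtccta
Etv5 start 1: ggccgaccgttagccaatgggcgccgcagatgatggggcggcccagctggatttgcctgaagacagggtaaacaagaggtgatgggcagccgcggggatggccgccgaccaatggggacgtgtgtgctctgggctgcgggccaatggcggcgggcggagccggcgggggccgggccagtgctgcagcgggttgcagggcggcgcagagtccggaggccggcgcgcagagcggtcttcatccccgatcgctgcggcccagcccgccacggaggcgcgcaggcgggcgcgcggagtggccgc
Etv5 start 2: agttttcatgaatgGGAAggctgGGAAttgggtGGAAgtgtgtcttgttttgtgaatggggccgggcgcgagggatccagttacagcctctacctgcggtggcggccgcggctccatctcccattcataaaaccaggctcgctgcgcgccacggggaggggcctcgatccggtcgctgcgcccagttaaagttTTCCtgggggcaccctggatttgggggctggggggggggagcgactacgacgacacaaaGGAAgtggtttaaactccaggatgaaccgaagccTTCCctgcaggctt
The Dusp6 window holds 6 matches on both strands together, the first Etv5 window 0 and the second 6. GGAA occurs in 96.0% of all 32851 such windows, with a median of 3 matches, so most windows hold it. The longer string GGAAGT, also sought on both strands and always overlapping a GGAA, is found at 2 places in the second Etv5 window, at 0 in the other two shown and in 23.8% of all windows. Windows were found for 7 of the 10 genes.

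Targets of Nodal differed between the groups. Lefty2, a Nodal antagonist induced by Nodal, had intensities of 1348 and 1253 on the activin arrays, 14 and 16 on the SB431542 arrays, and 497 and 493 on the control arrays, a log2 difference of −5.05 for SB431542 against control (limma adjusted p = 0.00296). Pmepa1, a Smad2/3-induced inhibitor of the pathway, had 488 and 398 with activin, 125 and 150 with SB431542, and 286 and 258 in control. These are 2 of 6 targets measured. The intensity trend, a limma setting described below, called all 6 lower with SB431542 than in control (1.60% of all probe sets). For activin against control it called only these 2 higher (0.195% of all), and default limma called 0. The 6 differences with activin ran from 0.13 to 1.42. Stem cell markers were bright in all groups, with sums over 7 genes of 32812 to 33585 with activin, 29749 to 29918 with SB431542 and 31266 to 33300 in control. With the intensity trend, 3 of the 7 stem cell markers were called lower and 1 higher with SB431542 than in control. Of all probe sets, 1.60% were called lower and 3.38% higher in that comparison, and these shares also stand beside the marker calls that follow. Markers of trophoblast, also 7 genes, summed to 9012 to 9522 with activin, 14704 to 14855 with SB431542 and 9720 to 11678 in control. Most of each sum came from 2 keratins, which with SB431542 read 7026 and 7284 (Krt8) and 6574 and 6540 (Krt18). The intensity trend called 5 of the 7 higher with SB431542 than in control. The other 2, Cdx2 and Elf5, had log2 differences of −0.11 and −0.43 and were not called. Mesendoderm markers, 3 measured genes, summed to 470 to 619 with activin, 103 to 110 with SB431542 and 509 to 529 in control, and 2 were called lower with SB431542. Fibroblast markers, 6 genes, summed to 328 to 377 with activin, 214 to 230 with SB431542 and 261 to 289 in control, and 1 was called lower with SB431542. Neuroectoderm markers, 3 genes, summed to 411 to 510 with activin, 410 to 478 with SB431542 and 416 to 428 in control, and 1 was called higher with SB431542. Extraembryonic endoderm markers, 6 genes, summed to at most 394 in any array, with 0 called by either setting. The lowest intensity of any probe set was 6, so a value above 0 does not show that a marker was present. Some markers, such as Elf5 at 13 to 21, lay within the range of probe sets for bacterial transcripts, whose highest value was 34. These marker shifts run beside every SB431542 difference below, and their part in it was not tested. In RNA from whole cultures, fewer cells of one kind and less RNA per cell cannot be told apart. Median intensity ranged from 37 to 49 over the 6 arrays and did not order them by group.

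By limma with its default variance prior, 0 of the 27 probe sets passed in any of the 3 comparisons at an adjusted p under 0.05. This test called 0.0155% of all probe sets for SB431542 against control, 0% for activin against control and 0.0200% for activin against SB431542. At an unadjusted p under 0.05 it found 5, 1 and 6 of the 27, where 13.0%, 6.21% and 9.04% of all probe sets reached it. A second limma setting, which lets the prior variance follow the intensity and damps outlying variances, is called the intensity trend here. It called 4 of 27 for SB431542 against control (4.98% of all probe sets), 0 of 27 for activin against control (0.215%, of which 0.195% higher and 0.0200% lower) and 4 of 27 for activin against SB431542 (2.27%). An exact permutation of 2 arrays against 2 cannot give a two-sided p below 0.333, so it was not used for single genes. Below, "rose" and "fell" are used only of probe sets called with the intensity trend, and both adjusted p-values are given for those of the 10 genes. The genes of other FGF/ERK lists described in this way after SB431542 did not pass by default. Fgf15 did pass by default for activin against SB431542, as given below. Where 1 array is left out below, its group keeps 1 array, so the spread is taken from the other groups and the prior, and such values show only where a call depends on an array.

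**Figure D1:**
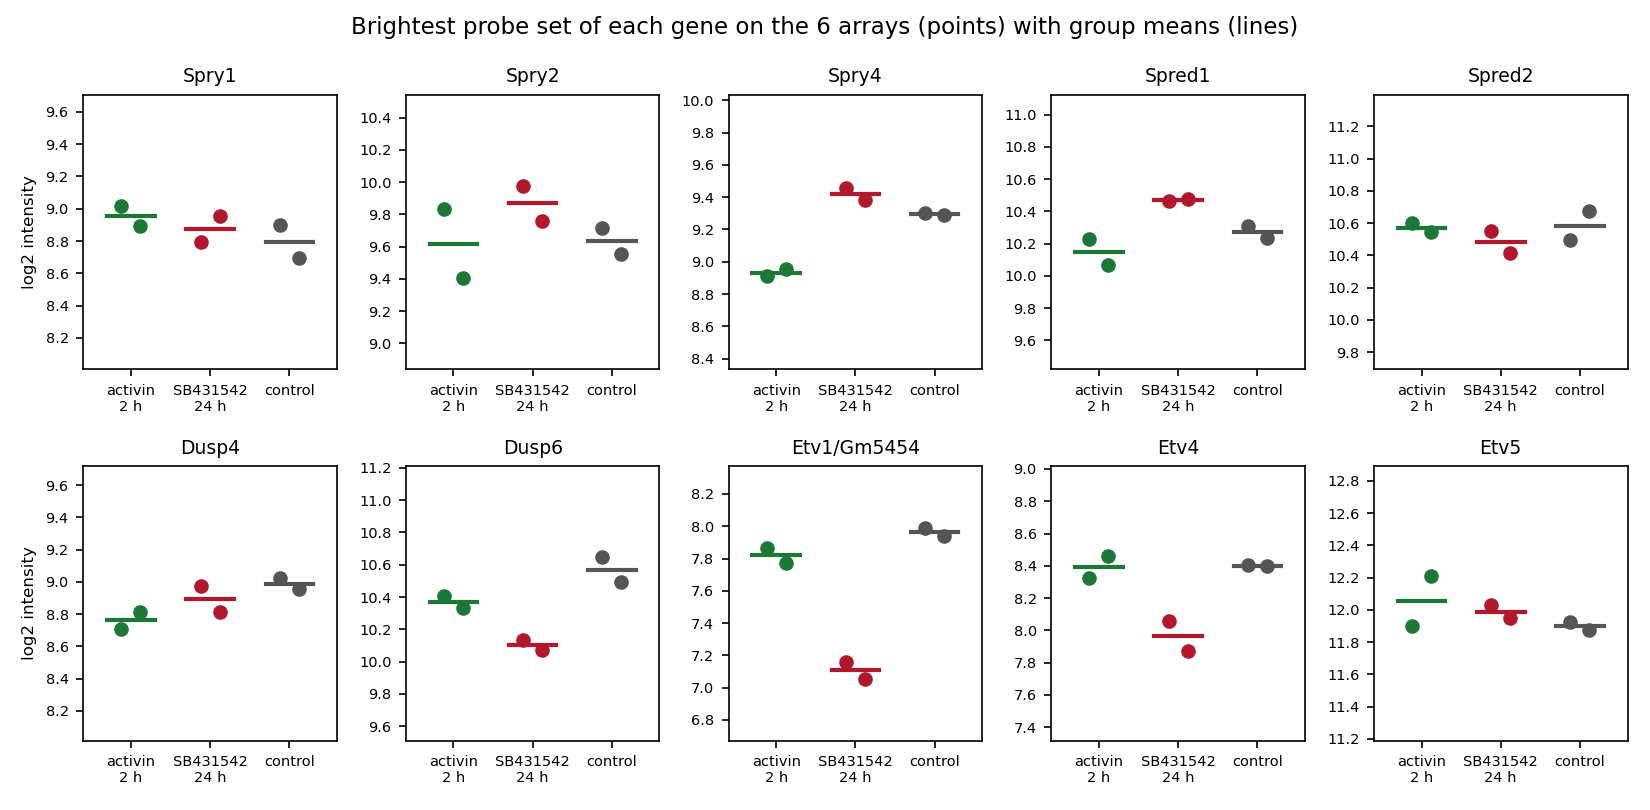
Log2 intensity of the brightest probe set of each gene on the 6 arrays, with activin, SB431542 and control from left to right, a point per array and a line at each group mean; every panel spans the same number of log2 units. Dusp6, Etv1/Gm5454 and Etv4 have both SB431542 arrays below all the others, while Spry4 has both activin arrays lowest.

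Dusp6, the cytoplasmic phosphatase of ERK, had its lowest values with SB431542. Its single probe set read 1125 and 1077 with SB431542 against 1605 and 1439 in control. Both SB431542 arrays lay below both controls and below the activin arrays, which read 1360 and 1289. On the log2 scale Dusp6 averaged 10.10 ± 0.04 with SB431542 and 10.57 ± 0.11 in control (SD, n = 2 each). The difference was −0.47 (SE 0.13, 95% interval −0.78 to −0.15, limma adjusted p = 0.279), and Dusp6 fell by the intensity trend (adjusted p = 0.00178). Without SB431542 replicate 2 it missed that threshold, at a log2 difference of −0.43 (limma adjusted p = 0.0525).

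Dusp4, a nuclear phosphatase of MAP kinases, was close to control after SB431542. It read 502 and 450 with SB431542 against 520 and 496 in control, and the groups overlapped. The log2 difference was −0.10, with a 95% interval of −0.42 to 0.23, which overlaps that of Dusp6. Whether the phosphatases differed from each other was not tested.

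Among the Ets factors, the brightest probe set of Etv4 read 266 and 234 with SB431542, against 339 and 337 in control. The 2 groups do not overlap, and the activin arrays, at 320 and 353, lie on both sides of the controls. The log2 difference was −0.44 (SE 0.13, 95% interval −0.77 to −0.11), which did not pass by default (limma adjusted p = 0.308) or by the intensity trend (limma adjusted p = 0.0651). The dim second Etv4 probe set, 23 to 33 on all arrays, lay at the level of probe sets for bacterial transcripts, whose highest value was 34.

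Etv5 gave different answers from its 3 probe sets. Probe set 1450082_s_at read 1249 and 1078 with SB431542 against 1609 and 1631 in control, a log2 difference of −0.48 (SE 0.13, limma adjusted p = 0.279, intensity trend adjusted p = 0.00102). Probe set 1420998_at read 1254 and 1021 with SB431542 against 1392 and 1693 in control, a difference of −0.44 (SE 0.18, limma adjusted p = 0.390, intensity trend adjusted p = 0.0114). Both fell by the intensity trend with no overlap between the groups, but the annotation derives them from 1 target sequence, so they are not independent. The brightest, 1428142_at, read 4183 and 3952 with SB431542 against 3879 and 3749 in control. There both SB431542 arrays were above both controls, at a log2 difference of 0.09 (SE 0.15, 95% interval −0.28 to 0.46, limma adjusted p = 0.826). The interval of 1428142_at and that of 1450082_s_at, −0.81 to −0.16, overlap, and the difference between the probe sets was not tested. Without SB431542 replicate 2 neither lower probe set was called by the intensity trend, with limma adjusted p = 0.122 for 1450082_s_at and 0.349 for 1420998_at, and without control replicate 2 the second was not called (limma adjusted p = 0.171).

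Etv1/Gm5454 had the most negative SB431542 difference among the 30 probe sets. Probe set 1422607_at read 143 and 133 with SB431542 against 254 and 245 in control. The SB431542 arrays stood clear of the controls and of the activin arrays, at 233 and 219. The log2 difference was −0.86 (SE 0.12, 95% interval −1.16 to −0.55, limma adjusted p = 0.162), and the signal fell by the intensity trend (adjusted p = 6.37e-04). Probe set 1450684_at, from the same target sequence, read 156 and 144 with SB431542 against 220 and 186 in control, a difference of −0.43 that was not called by the intensity trend (limma adjusted p = 0.154). The third read 10 to 12 on all arrays, within the bacterial range. Which of the gene and the pseudogene gives the signal cannot be told from these values.

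**Figure D2:**
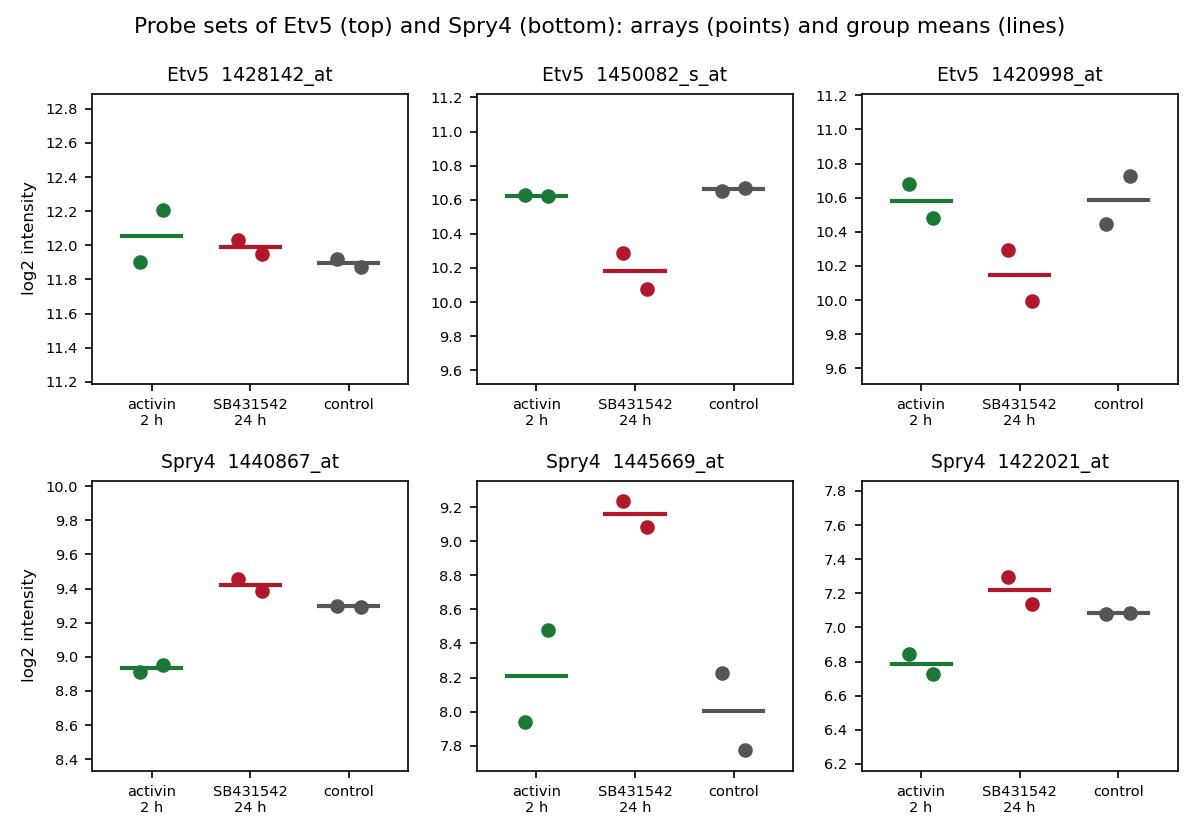
Log2 intensity of the 3 Etv5 probe sets (top) and of 3 of the 4 Spry4 probe sets (bottom) on the 6 arrays, with activin, SB431542 and control from left to right, a point per array and a line at each group mean. For Etv5, 1450082_s_at and 1420998_at are lowest with SB431542 and 1428142_at is not; for Spry4, 1445669_at is highest with SB431542.

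No probe set of the Sprouty and Spred genes was called lower after SB431542. In Spry4, an inhibitor of Ras activation downstream of growth factor receptors, probe set 1445669_at read 603 and 542 with SB431542 against 300 and 219 in control. Both SB431542 arrays were above all the others, the activin arrays being at 246 and 357. Spry4 rose on this probe set by the intensity trend (adjusted p = 1.93e-05), at a log2 difference of 1.16 (SE 0.24, 95% interval 0.55 to 1.77, limma adjusted p = 0.225), 2.23-fold. The brightest Spry4 probe set, 1440867_at, read 703 and 669 with SB431542 against 630 and 627 in control, a difference of 0.13 (SE 0.12, limma adjusted p = 0.684). The remaining 2 differed by 0.13 and 0.50 and did not pass, so all 4 Spry4 probe sets had a positive difference and 1 was called.

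Spry1 and Spry2 were close to control after SB431542. The Spry1 probe set read 443 and 496 with SB431542 against 477 and 414 in control, overlapping, with a log2 difference of 0.08 (95% interval −0.28 to 0.43). The brighter Spry2 probe set read 1008 and 866 with SB431542 against 840 and 752 in control. Its groups just missed each other, at a log2 difference of 0.23 (95% interval −0.24 to 0.71, limma adjusted p = 0.646), and the dimmer Spry2 probe set had −0.19, with overlapping groups.

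Spred1, a membrane-bound inhibitor of Ras signalling through neurofibromin, had 8 probe sets, all with a positive log2 difference after SB431542, from 0.03 to 0.81, and none called by either setting. The brightest read 1414 and 1425 with SB431542 against 1270 and 1205 in control, a difference of 0.20 (95% interval −0.12 to 0.51, limma adjusted p = 0.549). Probe set 1460116_s_at had a difference of 0.52 and stood just outside the threshold with the intensity trend (limma adjusted p = 0.0586), but inside it without activin replicate 1 or 2 (limma adjusted p = 0.0206 and 0.0251). Several of the Spred1 probe sets share a target sequence, and that with the difference of 0.81 was dim, at 32 and 26 with SB431542 against 17 and 16 in control. Spred2, its paralogue, read 1501 and 1363 with SB431542 against 1442 and 1636 in control on its brightest probe set, a difference of −0.10 with overlapping groups. The other 4 Spred2 probe sets lay between −0.53 and 0.16, and none passed.

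Read over the 27 probe sets, the SB431542 differences ran both ways. Their median was 0.08, against −0.03 over all 45037, with 16 above 0 and 11 below. The groups did not overlap in 11 probe sets that were higher, where 20.6% of all probe sets were, and in 5 that were lower, where 22.1% were. With the intensity trend 3 were lower (1.60% of all) and 1 higher (3.38%), and the 3 lower ones represent 2 genes. Without SB431542 replicate 2 it called 1 of the 27, the higher one. These counts are small, and members of one gene share their RNA and often their target sequence.

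After 2 h of activin no probe set of the 10 genes was called by either setting. The lowest unadjusted p belonged to Spry4 probe set 1440867_at, which read 481 and 496 with activin against 630 and 627 in control. Both activin arrays lay below the controls, at a log2 difference of −0.36 (SE 0.12, 95% interval −0.65 to −0.07, limma adjusted p = 0.793, intensity trend adjusted p = 0.295). Spry4 probe set 1422021_at had −0.30, and the other 2 had 0.21 and 0.22. Dusp6 had a difference of −0.20 (95% interval −0.51 to 0.12), and Dusp4, at 419 and 450 with activin against 520 and 496 in control, one of −0.23 (95% interval −0.55 to 0.09). Both phosphatases had both activin arrays below both controls. Etv4 had −0.01 (95% interval −0.34 to 0.32), the 3 Etv5 probe sets had −0.04, 0.00 and 0.16, and Spry1 had 0.16. The brightest Spred1 probe set read 1201 and 1072 with activin against 1270 and 1205 in control, a difference of −0.12 without overlap. Another Spred1 probe set, 1423162_s_at, read 165 and 192 with activin against 128 and 149 in control, a difference of 0.37 the other way, also without overlap and not called (limma adjusted p = 0.806). Spry2, at 914 and 677 with activin against 840 and 752 in control, and Spred2, at 1554 and 1492 with activin against 1442 and 1636 in control, both had −0.01 and overlapped. Over the 27 probe sets the median was −0.01, against 0.00 over all. Groups did not overlap in 7 that were lower, where 14.5% of all probe sets were, and in 1 that was higher, where 14.7% were.

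**Figure D3:**
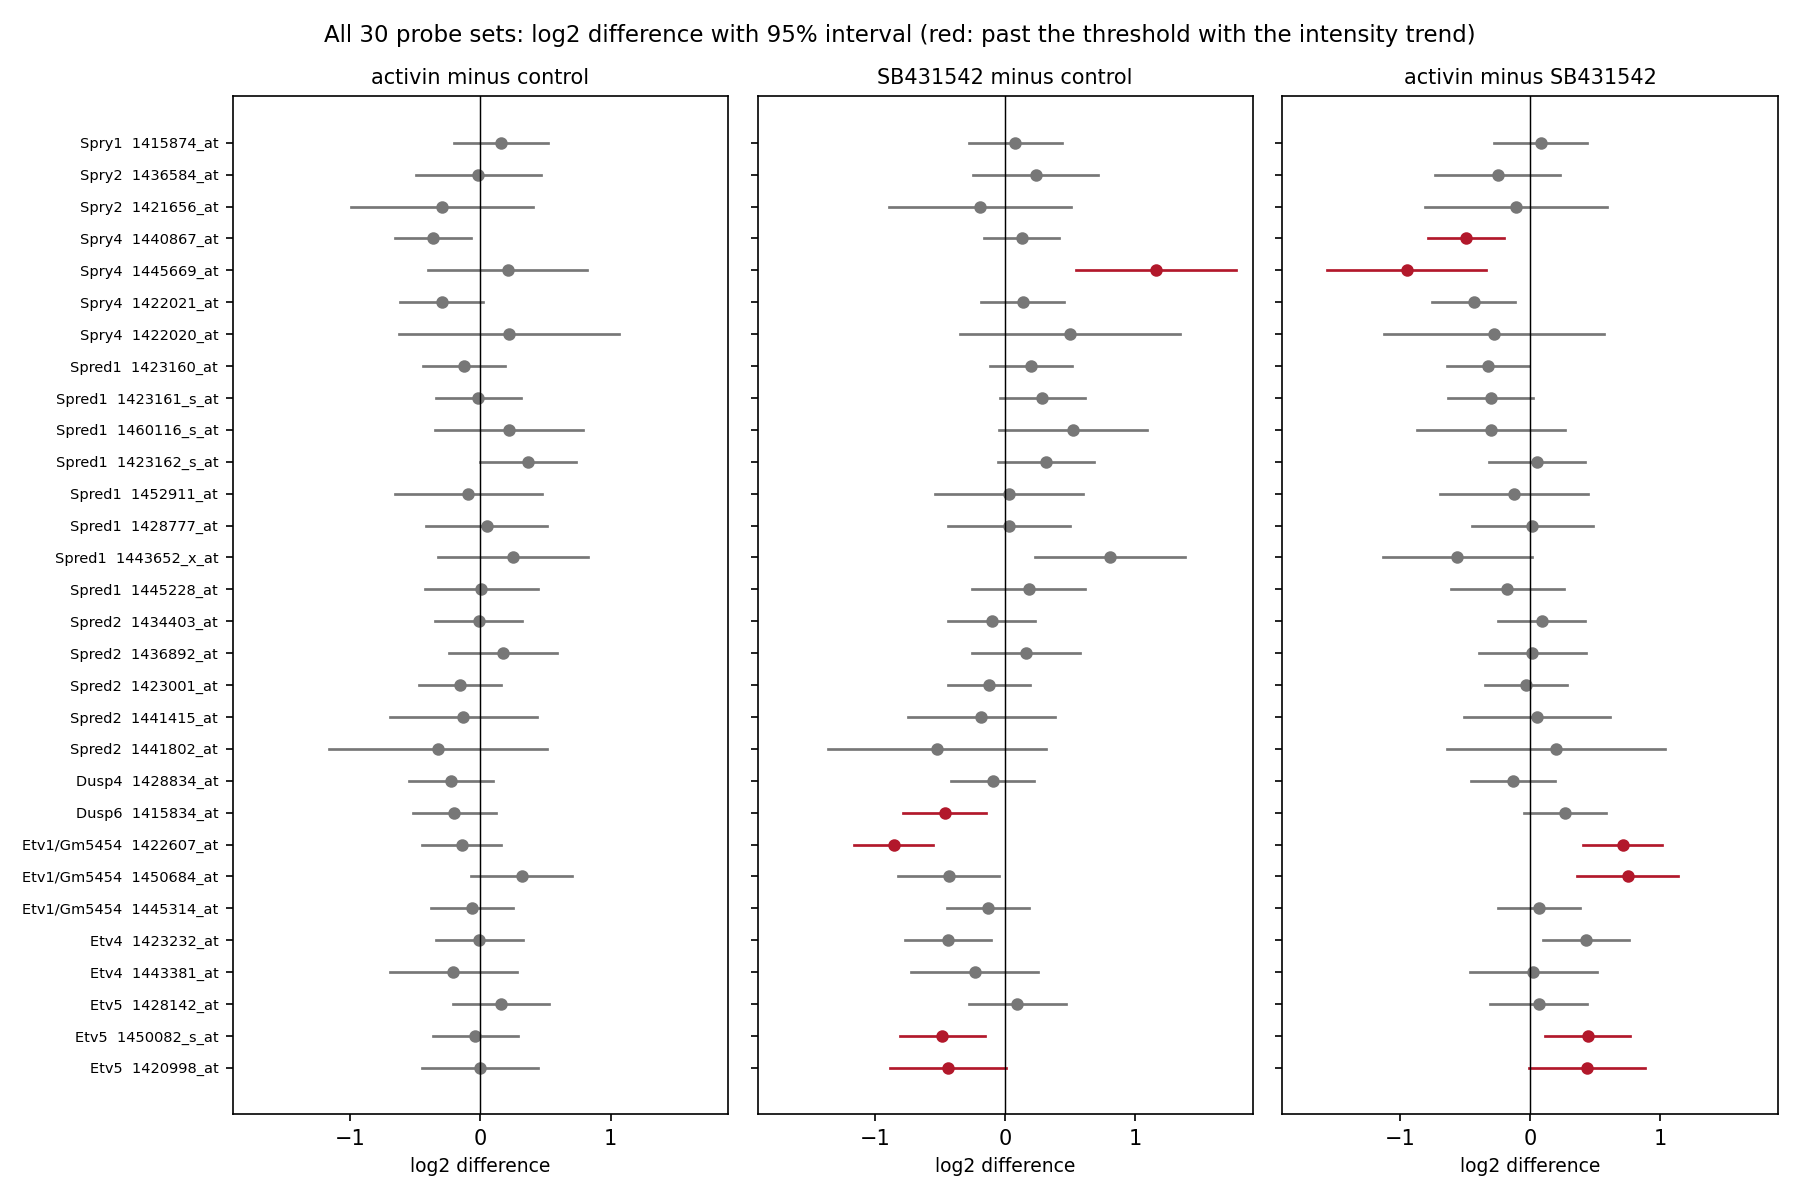
Log2 difference (points) and 95% interval of the default fit (lines) of all 30 probe sets for activin minus control, SB431542 minus control and activin minus SB431542. Red marks probe sets past the threshold with the intensity trend, so a red interval can cross 0. Red points are 0 of 27 in the first panel, 4 in the second and 4 in the third, besides those of Etv1/Gm5454.

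In the comparison of activin with SB431542 the difference uses no control value, but the control arrays enter its estimate of spread. Both comparisons above share the controls. Spry4 was lower with activin: probe set 1440867_at read 481 and 496 with activin against 703 and 669 with SB431542, a log2 difference of −0.49 (SE 0.12, limma adjusted p = 0.370, intensity trend adjusted p = 0.0102). Probe set 1445669_at had −0.95 (SE 0.24, limma adjusted p = 0.405, intensity trend adjusted p = 5.51e-04). All 4 Spry4 probe sets had both activin arrays below both SB431542 arrays, and these 2 fell by the intensity trend. The call of 1440867_at was lost without activin replicate 1 (limma adjusted p = 0.0964), SB431542 replicate 1 (limma adjusted p = 0.250) or SB431542 replicate 2 (limma adjusted p = 0.0896).

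Etv5 was higher with activin on the same 2 probe sets as above. Probe set 1450082_s_at read 1583 and 1573 with activin against 1249 and 1078 with SB431542, a log2 difference of 0.44 (SE 0.13, limma adjusted p = 0.446, intensity trend adjusted p = 0.00477), and 1420998_at had 0.44 (intensity trend, limma adjusted p = 0.0216). Etv1/Gm5454 had 0.71 on 1422607_at and 0.75 on 1450684_at, both called by the intensity trend (limma adjusted p = 0.00903 and 0.00704). Without SB431542 replicate 2 none of these 4 was called (limma adjusted p from 0.120 to 0.570). Without activin replicate 1, 1420998_at and 1422607_at were not called (limma adjusted p = 0.288 and 0.108), nor was 1422607_at without SB431542 replicate 1 (limma adjusted p = 0.0617) or 1450684_at without activin replicate 2 (limma adjusted p = 0.122). Etv4, at 0.43, and Dusp6, at 0.27, had no overlap between the groups and did not pass (intensity trend, limma adjusted p = 0.122 and 0.195). The brightest Spred1 probe set had −0.32 and was not called (intensity trend, limma adjusted p = 0.0777), but was without control replicate 1 or 2 (limma adjusted p = 0.0281 and 0.0289). Spry1, Spry2, Spred2 and Dusp4 had 0.08, −0.25, 0.09 and −0.13 on their brightest probe sets, all with overlapping groups.

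Of the 27 probe sets, 2 were called higher with activin by the intensity trend (0.802% of all probe sets) and 2 lower (1.47%). Groups did not overlap in 4 that were higher, where 18.7% of all were, and in 7 that were lower, where 18.2% were. Without SB431542 replicate 2 the intensity trend called 1 of the 27, Spry4 1445669_at, and without activin replicate 1 it called 2.

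Each gene's groups can be put in order on its own probe set. Dusp6 ran from SB431542 through activin to control, with no overlap between neighbouring groups. Neither step was called, only SB431542 against control by the intensity trend. Etv4 and Etv5 1450082_s_at had SB431542 lowest and activin and control within 0.04 of each other on the log2 scale, and no Etv4 difference was called. Spry4 1440867_at ran from activin through control to SB431542, and the step from control to SB431542 was the smaller one. Neither of these steps was called, only activin against SB431542 by the intensity trend. Spry1, Spred2 and Dusp4 kept no order that exceeded the spread of their arrays between SB431542 and control.

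Other genes of the cascade were counted from lists, with the brightest probe set standing for a gene. Of 10 further ERK feedback genes, 4 were called higher and 1 lower after SB431542 with the intensity trend (3.38% and 1.60% of all probe sets) and 0 by default, with a median log2 difference of 0.48, against −0.03 over all probe sets. Errfi1, an inhibitor of the EGF receptor, read 1074 and 1104 with SB431542 against 632 and 673 in control, a difference of 0.74. Dusp9, a phosphatase of ERK, read 1575 and 1440 with SB431542 against 930 and 814 in control, a difference of 0.79, and Dusp5, a nuclear phosphatase of ERK, 430 and 367 with SB431542 against 267 and 258 in control, a difference of 0.60. These 3 rose by the intensity trend. Il17rd, a membrane antagonist of FGF signalling also called Sef, was the 1 that fell, at 436 and 415 with SB431542 against 724 and 658 in control, a difference of −0.70. Its intensity trend adjusted p was 7.05e-05, and those of Errfi1, Dusp9 and Dusp5 were 1.16e-05, 1.51e-06 and 0.00681. Against SB431542, activin had 1 gene of this list called higher, Il17rd at 1.11, and 5 lower by the intensity trend (0.802% and 1.47% of all probe sets), among them Errfi1 at −0.92, Dusp9 at −0.89 and Flrt3, a membrane protein that binds FGF receptors, at −0.81.

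Of 8 early genes responsive to ERK, 1 was called higher and 2 lower for SB431542 against control with the intensity trend (3.38% and 1.60% of all probe sets). Egr1, a zinc finger factor induced within minutes of ERK activation, had a difference of 0.59, and Myc and Ccnd1, which promote growth and entry into the cell cycle, −0.58 and −0.41. Of the 14 genes measured between Ras adaptors and ERK, Nras rose by 0.31 (limma adjusted p = 0.408, intensity trend adjusted p = 0.0389) and the others were not called.

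Among 9 FGF ligands and receptors, Fgf8, Fgf15 and Fgf5 fell and Fgfr2 rose after SB431542 with the intensity trend, against the same shares of all probe sets. Fgf15 read 47 and 44 with SB431542 against 172 and 154 in control, and Fgf8 read 15 and 23 with SB431542 against 97 and 106 in control, the SB431542 values of Fgf8 being within the bacterial range. Fgf5 read 16 and 13 with SB431542 against 29 and 42 in control, so of these values only the 42 was above that range. For activin against control 0 genes in these 4 lists were called by either setting, while 0.215% of all probe sets were called by the intensity trend. For activin against SB431542 the intensity trend called 3 FGF ligands higher and 1 receptor lower (0.802% and 1.47% of all probe sets). Fgf15, at 277 and 228 with activin, had a difference of 2.47 and also passed by default (limma adjusted p = 0.0368), where 0.0200% of all did. The others were Fgf8 at 2.49, Fgf5 at 1.31 and Fgfr2 at −0.79.

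**Figure D4:**
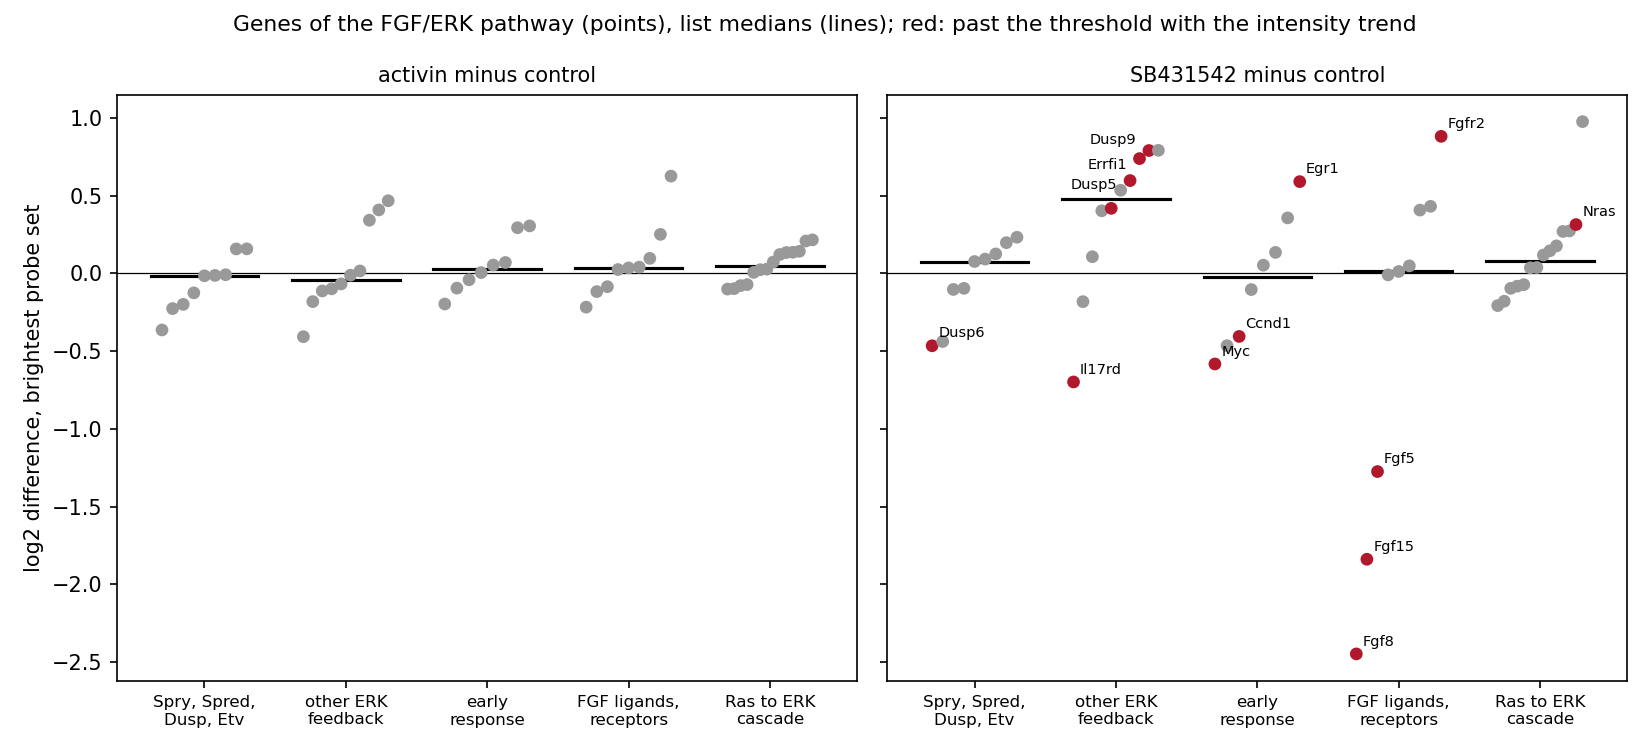
Log2 difference from control of the brightest probe set of each gene (points) in the 9 Spry, Spred, Dusp and Etv genes and 4 lists of other FGF/ERK pathway genes, for activin (left) and SB431542 (right), with a line at each list's median and red for genes past the threshold with the intensity trend. The other ERK feedback genes have a median of 0.48 with SB431542, and Il17rd lies below 0 among them.

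The genes whose values over the 6 arrays most resembled the mean of the 9 genes were Tmem41b (Pearson r = 0.987), Yeats2 (0.985), Hunk (0.978), Pgam5 (0.972) and Pinx1 (0.969), out of 8421 genes with a mean log2 intensity of at least 7. Of these genes, 38 reached 0.9. The mean of the 9 genes itself moved little, from −0.085 on activin replicate 2 to 0.030 on control replicate 1 in log2 units from the control mean. The points are 6 arrays that all genes share, so the likeness is a description of these arrays.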

How the data were processed

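RNA was measured on 6 Affymetrix mouse arrays, 2 per group. Per the labels' protocols, first strands were made from oligo-dT and biotin was added during in vitro transcription. The values deposited by the authors are linear intensities, 1 per probe set, in whole numbers from 6 to 26405. RMA was used per the submitters' processing notes; its version is not given in the sources used here, nor is the software. Intensities were converted to log2 with no further normalization, pseudocount or filter on low values. The 64 control probe sets were left out, which left 45037.

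Groups and replicate numbers came from the sample titles. One title and the agent label of both treated samples spell the inhibitor SB432542, and the remaining labels SB431542. Whether 2 arrays of one group are separate cultures is not stated, so p-values reflect only array-to-array spread, possibly technical.

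A model with a mean for each group was fitted to all 6 arrays (limma 3.58.1, R 4.3.3, eBayes), and Benjamini-Hochberg adjustment ran over all 45037 probe sets. The intensity trend used eBayes with a trend and robust estimation. Residual SD depended on level, with a median of 0.0772 for the brightest of 10 equal bins and 0.345 for bin 5 from below. The prior added 2.51 degrees of freedom by default and 34.3 with the trend. Leaving out an array leaves its group with 1, which is then assumed to vary like the other groups. Fits were tested on simulated data, with changes set in brighter probe sets for SB431542 against control. Default limma called 0.4% of 250 such probe sets at a 1.5-fold change and 26.8% at 2-fold. The intensity trend called 10.8% and 80.8%, so differences of these sizes can be missed. The small number of arrays limits precision, and background limits dim probe sets: 24 of the 27 probe sets had a mean above the highest of 27 bacterial control probe sets.

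The members and lists were chosen with earlier results of these data known. Every member probe set is described. Members of other lists were counted and could be named only where a setting called them, at most 4 per list and comparison by smallest p. Not every called one is named. Krt8, Cdx2 and Elf5 were named outside this rule, to show what the trophoblast sum holds. The Etv5, Spry4, Spred1 and Etv1/Gm5454 probe sets followed through the alternatives besides the brightest were chosen after their values were seen.

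Replicate numbers were checked for pairing: deviations of same-numbered arrays correlated at −0.14 between activin and control, 0.02 between SB431542 and control and −0.09 between activin and SB431542, so they were not used as a block. Promoter windows were read from RefSeq (GRCm38.p6).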

Additional observations from a re-analysis of the deposited data

How the results depend on the processing

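Default limma called 0 of the 27 probe sets in each comparison, also with a replicate block, with quantile normalization repeated, with the dimmest 40% left out (25 of 27 kept) and with any 1 array left out. With columns shifted to 1 median it called 1 for SB431542 against control, 0 for activin against control and 1 for activin against SB431542. The intensity trend called 4, 0 and 4. When 1 array was left out, by default or with the trend, the members called ranged from 0 to 5 for SB431542 against control, stayed at 0 for activin against control, and ranged from 0 to 5 for activin against SB431542. Over all probe sets, SB431542 against control gave 7 by default, 2242 with the intensity trend, 0 with the replicate block, 37 with quantile normalization repeated, 791 with columns shifted and 21 with the dimmest 40% left out. When 1 array was left out it gave 0 by default and up to 2560 with the trend. Activin against control gave 0, 97 with the trend, 78 with columns shifted, and 0 to 201 with 1 array left out. Activin against SB431542 gave 9, 1024 with the trend, 1 with the replicate block, 45 with quantile normalization repeated, 412 with columns shifted, 30 with the dimmest 40% left out, and 0 to 1493 with 1 array left out. A crossed block, with the activin numbers exchanged, was added after seeing the data and called 2, 0 and 3 probe sets. The cause of these shifts was not tested. No scaling moved the median difference of all probe sets by over 0.1. Averaging the probe sets of each gene turned the sign for Etv5 in SB431542 against control, to −0.28, and for Spred1 in activin against control, to 0.082. Leaving out 1 array turned the sign of small differences, none of them called with all arrays in that comparison. The ranges were −0.025 to 0.18 for Spry1 in SB431542 against control. In activin against control they were −0.23 to 0.20 for Spry2, −0.10 to 0.079 for Spred2, −0.079 to 0.063 for Etv4, −0.14 to 0.14 for Etv5 1420998_at, −0.059 to 0.48 for Spry4 1445669_at and −0.10 to 0.54 for Spred1 1460116_s_at. In activin against SB431542 they were −0.087 to 0.22 for Etv5 and −0.62 to 0.020 for Spred1 1460116_s_at. Of the other single-gene values, 739 kept direction and side of the threshold, and 68 newly passed it, none having passed by default.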
